A study of Mus musculus with 19 samples.

Results

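Tac1, Tac2, Tacr1 and Tacr3, which encode 2 tachykinin precursors and 2 tachykinin receptors, were read in RNA from the mouse striatum. The genes were chosen by name and found by their identifiers, as 4 of the 49592 genes counted, and all 4 passed the filter on low counts that left 21513 genes for testing. The study asked how loss of the dopamine D2 receptor in the medial prefrontal cortex (mPFC) changes the striatal response to amphetamine. All 19 mice were 4-month-old males of the line D2RCre_floxCas9-EGFP, in which Cre driven by the D2 receptor gene switches on Cas9 and EGFP. Knockout mice (PFC_D2R-KO) had received AAV5 D2R-sgRNA in the mPFC and control mice AAV5 syn-mCherry, so controls carried the same Cre and Cas9 alleles without the guide. After 5 days of saline the challenge on day 9 was amphetamine (3 mg/kg, i.p.) or saline, and striata were taken 90 min after amphetamine. The groups were 4 amphetamine knockout, 5 saline knockout, 5 amphetamine control and 5 saline control mice, 1 library per mouse. Cas9 cuts in D2 receptor cells of the mPFC, so no striatal transcript here checks the knockout.

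Tachykinins are short neuropeptides cut from larger precursors. Tac1 encodes the precursor of substance P and neurokinin A, and in the striatum it is a classic transcript of the direct-pathway projection neurons that carry the D1 dopamine receptor. Tac2 of the mouse encodes neurokinin B, a peptide well known from hypothalamic neurons. Tacr1 encodes the NK1 receptor, which prefers substance P and is found on striatal cholinergic interneurons, and Tacr3 encodes the NK3 receptor, which prefers neurokinin B. Both receptors couple to Gq and phospholipase C.

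In the deposited tables, whose coordinates are on GRCm39, Tac1 (ENSMUSG00000061762.13) lies on chromosome 6 from 7554879 to 7565834 and Tacr1 (ENSMUSG00000030043.12) on chromosome 6 from 82379456 to 82537085. Tac2 (ENSMUSG00000025400.12) lies on chromosome 10 from 127560347 to 127567637, and Tacr3 (ENSMUSG00000028172.6) on chromosome 3 from 134534768 to 134640340. No other gene in those tables overlaps them. The promoters of the peptide genes are shown because these genes had the largest log2 fold changes in the pairwise comparisons given below. They are the 250 bases before the RefSeq start of each gene on GRCm38.p6, both on the plus strand, 5′ to 3′, at chr6:7554811-7555060 for Tac1 and chr10:127724228-127724477 for Tac2. Capitals mark CACGTG (an E-box) and the core TGACG of the cAMP response element, which reads CGTCA where it lies on the other strand.
Tac1: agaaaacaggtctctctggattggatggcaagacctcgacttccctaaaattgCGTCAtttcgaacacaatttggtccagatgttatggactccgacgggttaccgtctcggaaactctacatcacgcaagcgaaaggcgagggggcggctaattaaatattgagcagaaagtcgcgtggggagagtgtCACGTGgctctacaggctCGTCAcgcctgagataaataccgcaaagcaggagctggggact
Tac2: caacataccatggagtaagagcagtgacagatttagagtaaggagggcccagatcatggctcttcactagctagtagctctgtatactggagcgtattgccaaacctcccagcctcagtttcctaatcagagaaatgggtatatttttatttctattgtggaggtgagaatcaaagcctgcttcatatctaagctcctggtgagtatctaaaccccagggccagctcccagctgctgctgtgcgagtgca

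Both strands were searched for 4 motifs: TGACG, the complete element TGACGTCA that contains it, the AP-1 site TGANTCA, and the E-box. The Tac1 window held TGACG at 2 places and the E-box once, without overlap. The Tac2 window held none of the 4 motifs. The Tacr1 and Tacr3 windows of the same length, not printed, each held TGACG once. Of 32851 RefSeq promoters of this length, 17.8% held TGACG, 1.55% TGACGTCA, 6.75% TGANTCA and 6.02% the E-box. All 4 genes matched 1 entry of the promoter table.

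Library totals ran from 57003408 to 85536346 counts. Striatal projection neuron markers were present in every library, and no marker list used below was at 0 in any group. Libraries were named by group and number: amphetamine knockout 2 and 3, saline knockout 3 and saline control 5 had been described as standing apart in earlier work on these data, and amphetamine control 3 lay farther from the origin of the first 4 principal components (57.1) than amphetamine knockout 2 (44.1). For the fold changes of the 4 genes, values without these libraries are given where they change a result. With amphetamine knockout 2 and 3 left out, that group keeps only libraries 1 and 4.

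Per gene length, Tac1 was by far the highest of the family. In FPKM (the authors' fragment counts divided by gene length and library size) the median over 19 mice was 115 for Tac1, with a range of 35.3 to 177. Tac2 had a median of 11.9 FPKM (4.51 to 29.3), Tacr1 of 4.81 FPKM (3.14 to 5.43) and Tacr3 of 3.35 FPKM (1.16 to 4.98). The order Tac1 above Tac2 held in 19 of 19 mice, Tac2 above Tacr1 in 17 and Tacr1 above Tacr3 in 18, so the neighbours in the lower part of the order overlapped in range. Median FPKM of Tac1 exceeded that of 98.2% of the 22901 genes with an FPKM, and that of Tacr3 exceeded 54.1%. The ratio of Tac1 to Tac2 in FPKM had a median of 8.72 in amphetamine knockout, 8.04 in saline knockout, 21.8 in amphetamine control and 10.9 in saline control mice. It ran from 1.61 in amphetamine knockout library 3 to 29.7 in an amphetamine control library. The remaining family genes were barely detected: Tac4, a further tachykinin precursor, had 0 to 9 counts per library, and Tacr2, which encodes the NK2 receptor, 0 to 28 counts.

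**Figure D1:**
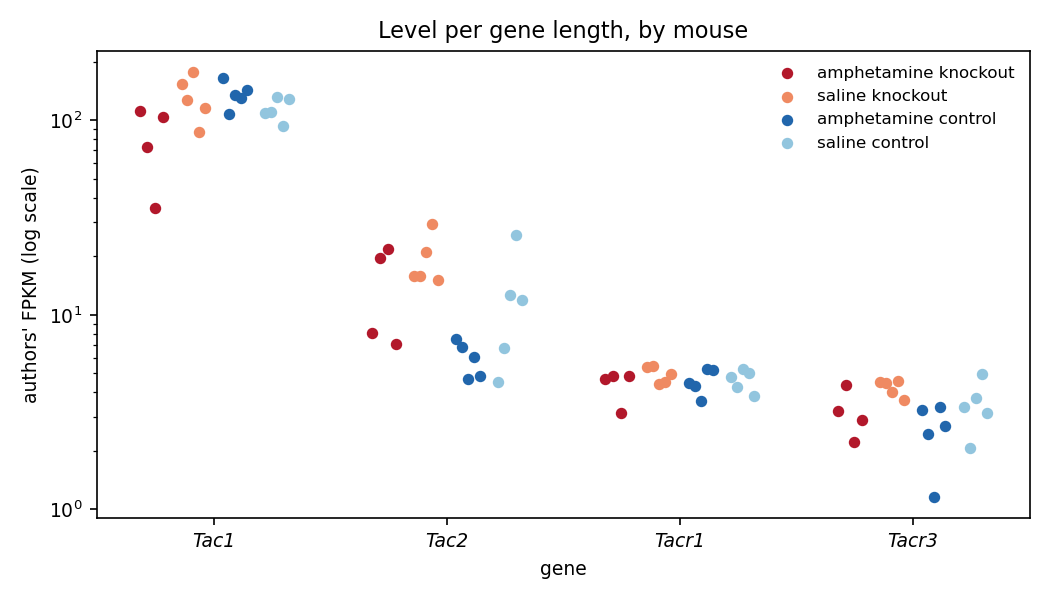
Authors' FPKM (log axis) of Tac1, Tac2, Tacr1 and Tacr3 in each of the 19 mice, 1 point per mouse, coloured by group. Tac1 spans 35.3 to 177 FPKM and lies above Tac2 in every mouse, while Tacr1 and Tacr3 lie close together.

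Tac1 was lowest in the knockout mice given amphetamine. In CPM (counts scaled to a common library total, with TMM scaling), Tac1 stood at 220.0, 144.0, 69.0 and 206.1 in amphetamine knockout libraries 1 to 4. It stood at 302.0, 250.8, 354.2, 172.2 and 229.3 CPM in the saline knockout libraries, at 325.1, 212.1, 266.7, 254.6 and 283.8 CPM in the amphetamine control libraries, and at 215.2, 219.6, 260.7, 184.5 and 254.0 CPM in the saline control libraries. Amphetamine knockout library 3 was the lowest of all 19, library 2 the next lowest, and the other 2 amphetamine knockout libraries lay within the range of the saline groups. The group means were 160 ± 69.0 CPM in amphetamine knockout (SD, n = 4), 262 ± 69.6 CPM in saline knockout, 268 ± 41.3 CPM in amphetamine control and 227 ± 31.1 CPM in saline control mice (n = 5 each). The order of the means was amphetamine control, saline knockout, saline control, amphetamine knockout, and each neighbouring pair differed by less than the larger of its SDs. In 3 of the 4 amphetamine knockout mice Tac1 lay below all 5 amphetamine control mice.

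Tac2 was lowest and most even in the control mice given amphetamine. Tac2 stood at 6.92, 16.7, 18.5 and 6.05 CPM in the amphetamine knockout libraries and at 13.4, 13.5, 18.2, 25.0 and 13.0 CPM in the saline knockout libraries. It stood at 6.43, 5.76, 3.99, 5.15 and 4.12 CPM in the amphetamine control libraries and at 3.84, 5.80, 10.8, 21.96 and 10.1 CPM in the saline control libraries. The saline control mice spanned a range that took in all amphetamine control mice and 4 of 5 saline knockout mice, and the amphetamine knockout mice fell into a low and a high pair. Means were 12.03 ± 6.46 CPM in amphetamine knockout (SD, n = 4), 16.6 ± 5.14 CPM in saline knockout, 5.09 ± 1.05 CPM in amphetamine control and 10.5 ± 7.04 CPM in saline control mice (n = 5 each). The order of the means was saline knockout, amphetamine knockout, saline control, amphetamine control, and each neighbouring pair differed by less than the larger of its SDs.

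Of the 4 genes, Tacr1 varied least between groups. Tacr1 stood at 23.6, 24.4, 15.6 and 24.3 CPM in the amphetamine knockout libraries and at 27.0, 27.3, 22.5, 22.8 and 25.1 CPM in the saline knockout libraries. It stood at 22.6, 21.5, 18.01, 26.3 and 26.3 CPM in the amphetamine control libraries and at 24.1, 21.5, 26.3, 25.3 and 19.2 CPM in the saline control libraries. All group means of Tacr1 lay between 21.98 and 24.9 CPM, in the order saline knockout, saline control, amphetamine control, amphetamine knockout. The SDs were 2.26 to 4.26 CPM, neighbouring means differed by less than the larger of their SDs, and amphetamine knockout library 3 was again the lowest mouse.

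Tacr3 had its highest mean in saline knockout mice, where the libraries were also most alike. Tacr3 stood at 12.04, 16.4, 8.25 and 10.9 CPM in the amphetamine knockout libraries and at 16.9, 16.7, 15.3, 17.1 and 13.9 CPM in the saline knockout libraries. It stood at 12.3, 9.15, 4.37, 12.5 and 10.1 CPM in the amphetamine control libraries and at 12.7, 7.76, 14.0, 18.7 and 11.8 CPM in the saline control libraries. Amphetamine control library 3 was the lowest of all mice and saline control library 4 the highest. Means of Tacr3 were 11.9 ± 3.42 CPM in amphetamine knockout (SD, n = 4), 16.0 ± 1.37 CPM in saline knockout, 9.68 ± 3.29 CPM in amphetamine control and 13.0 ± 3.95 CPM in saline control mice (n = 5 each). In the order saline knockout, saline control, amphetamine knockout, amphetamine control, neighbouring means differed by less than the larger SD.

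**Figure D2:**
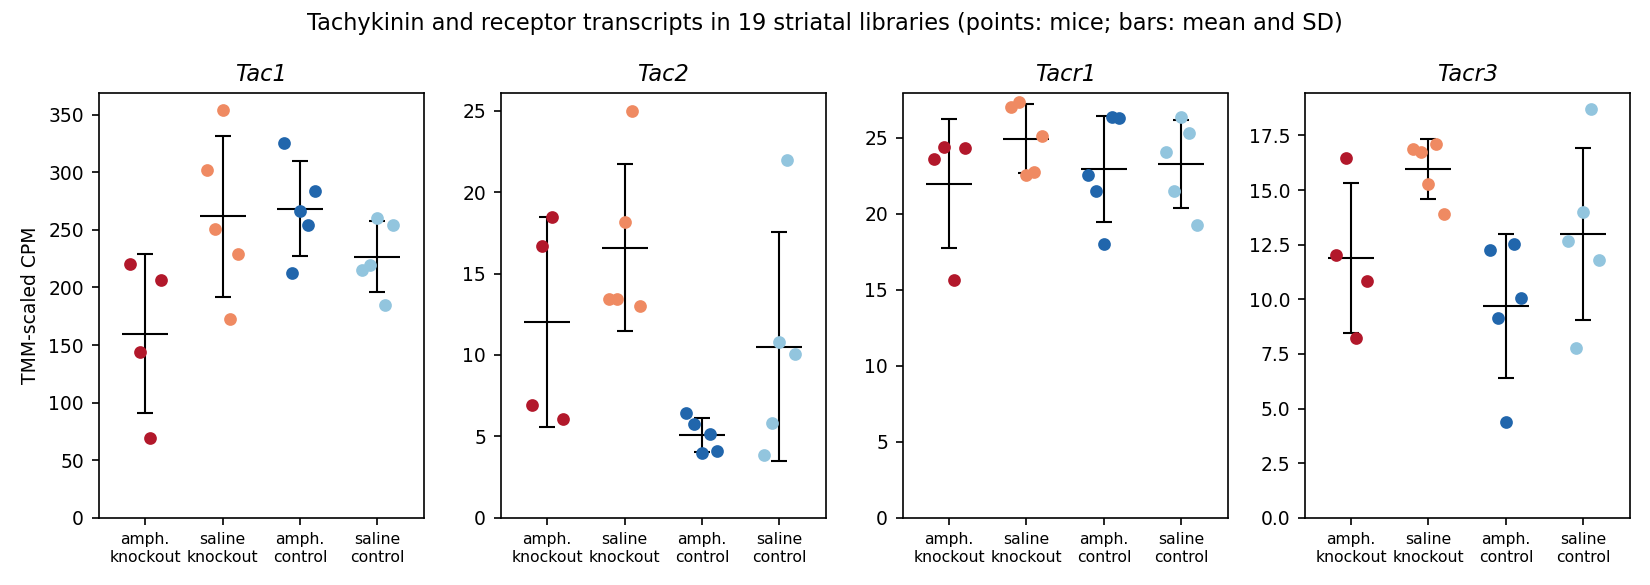
TMM-scaled CPM of each gene in the 19 mice, with 1 panel per gene and an axis from 0. Points are mice and bars show mean and SD for amphetamine knockout (n = 4), saline knockout, amphetamine control and saline control mice (n = 5 each); the groups overlap for all 4 genes in the 4 comparisons of treatment or genotype.

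None of the 4 genes passed the test in any comparison. Counts were tested with edgeR's quasi-likelihood test as 4 group means over all 19 libraries, with Benjamini-Hochberg adjustment over the 21513 genes, and the threshold for a call was an adjusted p of 0.05. All fold changes below are log2, with 95% intervals that are not adjusted for the number of genes. In bulk tissue, fewer cells of a type and less RNA per cell cannot be told apart.

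In control mice, amphetamine against saline called 0 of the 4 genes, against 0.00465% of all genes tested. Tac2 was the gene nearest to a call, with a log2 fold change of -1.05 (interval -1.88 to -0.21, edgeR adjusted p = 0.309), and the only member at an unadjusted p under 0.05, as were 11.8% of all genes. Without saline control library 4, the highest of its group, the Tac2 value was -0.59. Tac1 differed by 0.24 (-0.25 to 0.74), Tacr1 by -0.02 (-0.28 to 0.24) and Tacr3 by -0.42 (-0.93 to 0.08). The Tacr3 value was -0.25 without amphetamine control library 3 and -0.26 without saline control library 4. No member separated the groups without overlap, against 3.9% of all genes.

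In knockout mice, amphetamine against saline again called 0 of 4, against 0.00465% of all genes, and the peptide gene nearest to a call was another. Tac1 was lower with a log2 fold change of -0.71 (interval -1.24 to -0.18, edgeR adjusted p = 0.301), the only member at an unadjusted p under 0.05, as were 12.1% of all genes. The Tac1 value was -0.46 without amphetamine knockout library 3 and -0.17 without all 4 libraries described as standing apart. Tac2 differed by -0.46 (-1.33 to 0.40), Tacr1 by -0.18 (-0.46 to 0.09) and Tacr3 by -0.42 (-0.96 to 0.11). Tac2 was -1.33 without the 4 libraries, -0.75 without amphetamine knockout library 3, and between -0.27 and -0.24 without amphetamine knockout library 1 or 4 or saline knockout library 4. No member separated these groups, against 5.07% of all genes.

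Between genotypes under amphetamine, both peptide genes came nearer to a call than in the other pairwise comparisons, in opposite directions, and 0 of 4 were called, against 0% of all genes. Tac1 was lower in knockout mice, with a log2 fold change of -0.75 (interval -1.28 to -0.22, edgeR adjusted p = 0.255). Tac2 was higher in knockout mice by 1.24 (0.37 to 2.11, edgeR adjusted p = 0.251). These were the 2 members at an unadjusted p under 0.05, as were 12.8% of all genes. Without amphetamine knockout library 3 the values were -0.50 for Tac1 and 0.96 for Tac2, and without the 4 libraries described as standing apart they were -0.33 and 0.35. That last fit left out amphetamine knockout libraries 2 and 3, the 2 lowest of their group for Tac1 and the 2 highest for Tac2. Tacr1 differed by -0.06 (-0.34 to 0.21) and Tacr3 by 0.30 (-0.24 to 0.83). The Tacr3 value was 0.12 without amphetamine control library 3 and 0.10 without amphetamine knockout library 2. No member separated the groups, against 6.79% of all genes.

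Between genotypes under saline, 0 of 4 were called, against 0% of all genes, and none had an unadjusted p under 0.05, against 7.94% of all genes. Tac1 differed by a log2 fold change of 0.21 (-0.29 to 0.70), Tac2 by 0.66 (-0.16 to 1.48), Tacr1 by 0.10 (-0.16 to 0.36) and Tacr3 by 0.30 (-0.20 to 0.80). No member separated the groups, against 0.911% of all genes. Single libraries moved these values: without saline control library 4 Tac2 was 1.12 and Tacr3 0.47, and without saline control library 2 Tacr3 was 0.16. Tac1 was 0.07 without saline knockout library 3 and 0.32 without saline knockout library 4.

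The difference between genotypes in the amphetamine response was also tested and called 0 of 4, against 0% of all genes. Tac1 had the largest such difference, at -0.95 on the log2 scale (interval -1.68 to -0.23, edgeR adjusted p = 0.519), and was the only member at an unadjusted p under 0.05, as were 9.25% of all genes. It was -0.45 without the 4 libraries. The differences were 0.58 (-0.61 to 1.77) for Tac2, -0.16 (-0.54 to 0.22) for Tacr1 and -0.00032 (-0.76 to 0.76) for Tacr3. Removing the 4 libraries gave Tac2 a value of the other sign, -0.26. The Tac2 value was 0.38 without amphetamine knockout library 2, 0.30 without amphetamine knockout library 3 and 0.12 without saline control library 4.

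Averaged over genotypes, amphetamine against saline called 0 of 4, against 0.149% of all genes. Tac2 differed by a log2 fold change of -0.76 (-1.36 to -0.15, edgeR adjusted p = 0.236) and Tacr3 by -0.42 (-0.79 to -0.06, edgeR adjusted p = 0.275). These 2 had an unadjusted p under 0.05, as did 14.5% of all genes. Without the 4 libraries Tac2 was -1.20, and with the marker covariates described further on Tacr3 was -0.0038. Tac1 differed by -0.23 (-0.59 to 0.13), and by -0.11 without amphetamine knockout library 3, and Tacr1 by -0.10 (-0.29 to 0.09). Averaged over treatments, knockout against control called 0 of 4, against 0% of all genes. Tac2 was the member with the smallest p, higher by 0.95 in knockout mice (0.35 to 1.55, edgeR adjusted p = 0.325), and the only one at an unadjusted p under 0.05, as were 11.6% of all genes. It was 0.48 without the 4 libraries. Tac1 differed by -0.27 (-0.63 to 0.09), and by -0.15 without amphetamine knockout library 3, Tacr1 by 0.02 (-0.17 to 0.21) and Tacr3 by 0.30 (-0.07 to 0.67). DESeq2 also called 0 members in every comparison, and its smallest adjusted p was 0.0950, for Tac1 between genotypes under amphetamine. The comparisons share groups, so their values are not independent of each other.

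**Figure D3:**
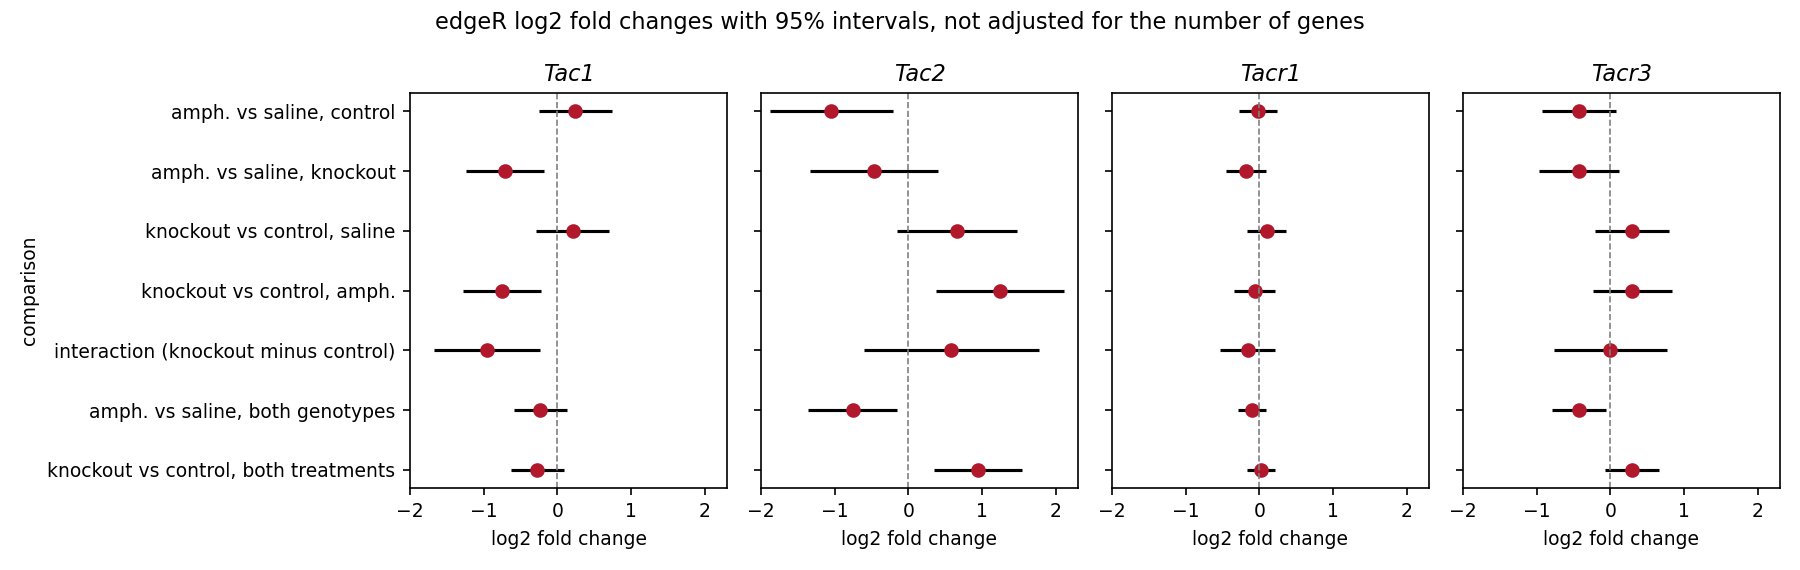
Log2 fold changes from edgeR (points) with 95% intervals (lines) for each gene, 1 row per comparison, with the dashed line at 0. The Tac1 and Tac2 intervals for knockout against control under amphetamine lie on opposite sides of 0, the Tacr1 intervals all cross 0, and no adjusted p was under 0.05.

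The authors' deposited tables for 3 of the comparisons, named as DESeq2 results, also listed no member at an adjusted p under 0.05. In the authors' deposited table for amphetamine in control mice, which called 4.21% of its genes, the log2 fold change was 0.24 for Tac1, -1.04 for Tac2, -0.02 for Tacr1 and -0.42 for Tacr3. The authors' deposited table for amphetamine in knockout mice, with 0.665% called, gave -0.70 for Tac1, -0.45 for Tac2, -0.17 for Tacr1 and -0.42 for Tacr3. In the authors' deposited table for knockout against control under saline, with 0.00439% called, the values were 0.20, 0.65, 0.09 and 0.29 for Tac1, Tac2, Tacr1 and Tacr3.

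Tac2, Tac1 and Tacr3 differed more between mice of a group than most genes did. The within-group SD of log2 CPM was 0.671 for Tac2, larger than that of 92.05% of the genes tested, and 0.429 for Tac1, larger than that of 74.4%. Tacr3 had an SD of 0.442 (75.7%) and Tacr1 of 0.217 (45.4%), where the median over all genes was 0.240. Counting error was small beside this spread, since the lowest count of Tac2 in a library was 254, a counting error of 6.27%, and that of Tac1 was 4944.

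Within groups, the receptors varied together across mice. With group means subtracted from log2 CPM, Tacr1 and Tacr3 had Pearson r = 0.69 (permutation p = 0.00567, adjusted over 6 pairs p = 0.0340) and Spearman rho = 0.67 (permutation p = 0.00602, adjusted p = 0.0361). Without the 2 mice farthest from the median of Tacr1 the r was 0.43 (adjusted permutation p = 0.468), so the relation rests on those mice. Tac1 and Tac2 had r = -0.49 and rho = -0.38 (permutation p = 0.0592 and 0.175, adjusted p = 0.178 and 0.351). The other 4 pairs had r from -0.20 to 0.48 and did not pass after adjustment.

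Across the same mice, each member was set beside markers of the cell types that a striatal dissection can hold. A list's score was the mean log2 CPM of its genes, and 44 relations (4 genes by 11 lists) were computed with group means subtracted and p-values adjusted over all 44. By Pearson r, 14 passed an adjusted permutation p of 0.05, and by Spearman rho 7 did. After the 2 mice farthest from the median of the member gene, with group means subtracted, were left out, 2 passed. The change in r itself was uneven: r was larger in size without those mice for Tac2 with the 3 projection neuron lists and for Tacr3 with the cortical list, and smaller for the other relations that had passed. No gene of any list was called in any comparison, against 0% to 0.149% of all genes tested.

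**Figure D4:**
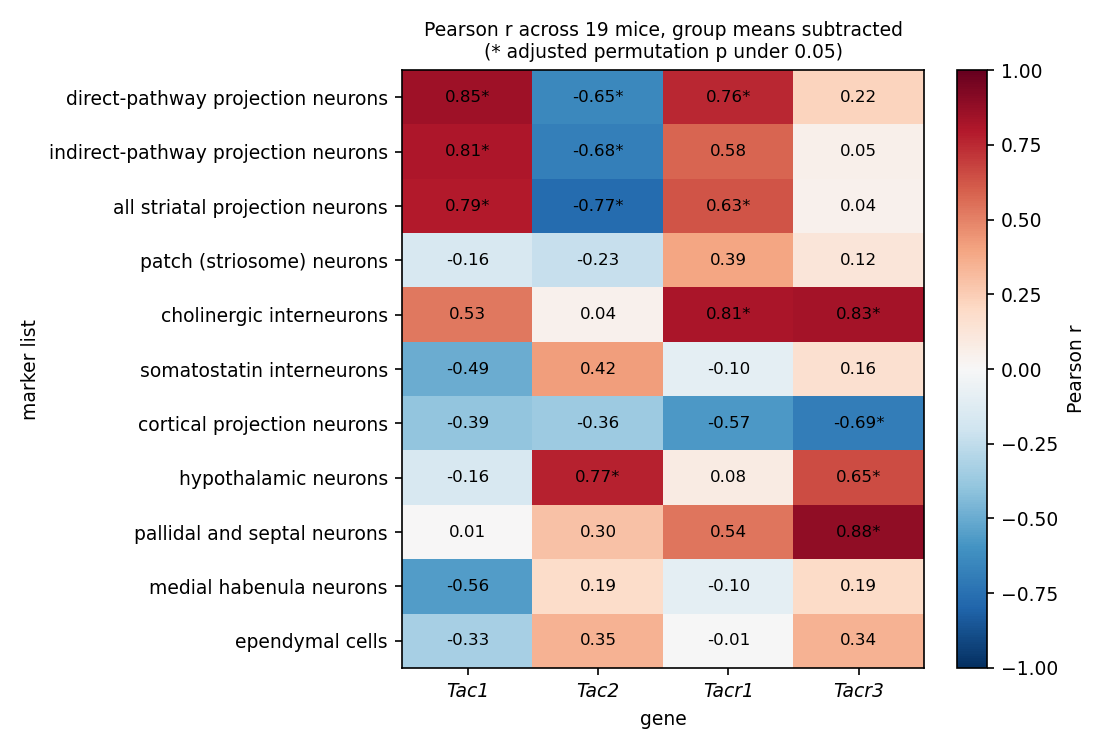
Pearson r over 19 mice between each gene (columns) and the score of each marker list (rows), both as log2 CPM with group means subtracted, with stars where the adjusted permutation p was under 0.05. Tac1 has r from 0.79 to 0.85 with the projection neuron lists, Tac2 r from -0.77 to -0.65 with the same lists, and Tacr3 r = 0.88 with the pallidal and septal list.

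Tac1 moved with the projection neuron markers by Pearson r, while 0 of its 11 relations passed by Spearman rho. Its r with the direct-pathway list (Drd1, Pdyn, Isl1, Sfxn1, Eya1, Ebf1, Chrm4) was 0.85 and rho 0.65 (adjusted permutation p = 0.0158 and 0.0545), and r was 0.59 without the 2 farthest mice (adjusted p = 0.164). With the indirect-pathway list, whose neurons do not classically carry Tac1, r was 0.81 and rho 0.64 (adjusted permutation p = 0.0155 and 0.0545). Without the 2 farthest mice this r was 0.63 (adjusted p = 0.125). With the list of all projection neurons r was 0.79 and rho 0.51 (adjusted permutation p = 0.0227 and 0.182), and r was 0.60 without the 2 farthest mice (adjusted p = 0.184). The direct-pathway list summed to 215 to 440.0 CPM in amphetamine knockout, 365 to 525 CPM in saline knockout, 427 to 531 CPM in amphetamine control and 365 to 490.2 CPM in saline control mice. The list of all projection neurons (Ppp1r1b, Bcl11b, Rasd2, Rgs9, Pde10a, Rarb, Adcy5) summed to 1267 to 3324 CPM in amphetamine knockout, 1734 to 3036 CPM in saline knockout, 3398 to 4404 CPM in amphetamine control and 2259.8 to 3196 CPM in saline control mice. Amphetamine knockout library 3, lowest for Tac1, was also lowest for both lists. Between genotypes under amphetamine the list of all projection neurons had 0 of 7 genes above 0 and a median log2 fold change of -0.78. The direct-pathway list had 2 of 7 genes above 0 and a median of -0.22, and the indirect-pathway list 0 of 6 and -0.61. The median over all genes tested was 0.00492. The part of these cells in the Tac1 value was not tested beyond the ratio given next.

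Tac1 relative to the direct-pathway list, the difference of Tac1 log2 CPM and the list's score, averaged 2.22 ± 0.409 in amphetamine knockout (SD, n = 4), 2.78 ± 0.343 in saline knockout, 2.74 ± 0.187 in amphetamine control and 2.66 ± 0.194 in saline control mice (n = 5 each). By 2-sided exact permutation tests adjusted over 4 comparisons, knockout minus control under amphetamine was -0.52 (exact p = 0.0159, the smallest that 4 against 5 mice allow, adjusted p = 0.0635). That p is the same fact as all 4 knockout mice lying below all 5 control mice. In CPM of single genes, 6.79% of all genes tested separated these 2 groups. Amphetamine minus saline in knockout mice was -0.56 (exact p = 0.0476, adjusted p = 0.0952). The other 2 comparisons differed by 0.08 and 0.12 (exact p = 0.516 each). The result between genotypes depended on the list: with Drd1 alone as the denominator the difference was 0.05 (exact p = 0.540), and with the list of all projection neurons -0.04 (exact p = 0.778). Amphetamine minus saline in knockout mice kept its sign, at -0.31 with Drd1 alone and -0.53 with all projection neurons (exact p = 0.0317 and adjusted p = 0.127 for each). By mouse, Tac1 relative to the direct-pathway list was 2.52, 2.24, 1.64 and 2.48 in amphetamine knockout libraries 1 to 4. Libraries 2 and 3 of that group were the lowest of all mice, and saline knockout library 3 the highest at 3.27. The differences without the libraries described as standing apart are not given.

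Tac2 went the other way with projection neuron markers and moved with hypothalamic ones. Its r with the hypothalamic list (Avp, Oxt, Hcrt, Pmch, Agrp, Pomc, Ghrh, Sim1, Otp) was 0.77 and rho 0.77 (adjusted permutation p = 0.0101 and 0.0203), and r was 0.67 without the 2 farthest mice (adjusted p = 0.0332). This was 1 of the 2 relations that still passed. Its r with the list of all projection neurons was -0.77 and rho -0.82 (adjusted permutation p = 0.0101 and 0.0237), and r was -0.83 without the 2 farthest mice (adjusted p = 0.0805). With the direct-pathway list Tac2 had r = -0.65, and -0.74 without the 2 farthest mice (adjusted p = 0.0227 and 0.107). By rank, Tac2 and the direct-pathway list had rho = -0.64 (adjusted permutation p = 0.0801). The hypothalamic list summed to 5.27 to 26.8 CPM in amphetamine knockout, 49.996 to 111 CPM in saline knockout, 2.37 to 18.7 CPM in amphetamine control and 3.31 to 149 CPM in saline control mice, and none of its genes was at 0 in all libraries of a group. Part of the list was barely detected, with a median over all mice of 0.0711 CPM for Hcrt, 0.107 for Agrp, 0.417 for Ghrh and 0.587 for Pmch. The highest medians were 11.3 CPM for Oxt and 4.85 CPM for Avp. The median log2 fold change of the list was -1.57 for amphetamine against saline in control mice and 1.43 for knockout against control under amphetamine, the same signs as those of Tac2. The part of these cells in the Tac2 values was not tested. A separate fit had covariates for cortical, ependymal and pallidal-septal markers and none for hypothalamic ones. In it the Tac2 value for amphetamine in control mice was -0.38 and that for genotype under amphetamine was 0.79.

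Both receptor genes had relations with cholinergic interneuron markers, and each with other lists as well. Tacr1 had r = 0.81 and rho = 0.72 with the list Chat, Slc18a3, Slc5a7, Lhx8 and Gbx2 (adjusted permutation p = 0.0248 and 0.0280), but r = 0.43 without the 2 farthest mice (adjusted p = 0.473). Tacr1 also had r = 0.76 and rho = 0.68 with the direct-pathway list (adjusted permutation p = 0.0158 and 0.0268), with r = 0.56 without the 2 farthest mice (adjusted p = 0.107). With the list of all projection neurons its r was 0.63 and rho 0.46 (adjusted permutation p = 0.0390 and 0.178), and r was 0.35 without the 2 farthest mice (adjusted p = 0.383). Amphetamine knockout library 3 had the lowest cholinergic score of all mice, at 1.90 on the log2 scale. Tacr3 had r = 0.83 and rho = 0.74 with the same list (adjusted permutation p = 0.000440 and 0.0132), and r = 0.79 without the 2 farthest mice (adjusted p = 0.0332). This was the other relation that still passed. Tacr3 had its largest r, 0.88 with rho = 0.83, with pallidal and septal markers (adjusted permutation p = 0.00396 and 0.00352), and r = 0.71 without the 2 farthest mice (adjusted p = 0.0805). With cortical markers Tacr3 had r = -0.69 and rho = -0.85 (adjusted permutation p = 0.0101 and 0.00352), and r = -0.74 without the 2 farthest mice (adjusted p = 0.0980). For amphetamine against saline the cortical list had 10 of 10 genes above 0 in control mice and 8 of 10 in knockout mice. Its median log2 fold changes were 0.75 and 0.96, beside -0.00742 and -0.00586 over all genes tested. For the same comparisons the pallidal and septal list had 0 of 8 genes above 0 in control mice and 1 of 8 in knockout mice, with medians of -0.60 and -0.15. With hypothalamic markers Tacr3 had r = 0.65 and rho = 0.52 (adjusted permutation p = 0.0486 and 0.176), and r = 0.34 without the 2 farthest mice (adjusted p = 0.603). The pallidal and septal list summed to 230.1 to 403 CPM in amphetamine knockout, 285 to 454 CPM in saline knockout, 108 to 248 CPM in amphetamine control and 239.6 to 372 CPM in saline control mice. The lowest sum was that of an amphetamine control mouse, the group with the lowest Tacr3, and the part of this tissue in the Tacr3 values was not tested beyond the covariate fit, in which Tacr3 between amphetamine and saline control mice was 0.17 on the log2 scale.

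**Figure D5:**
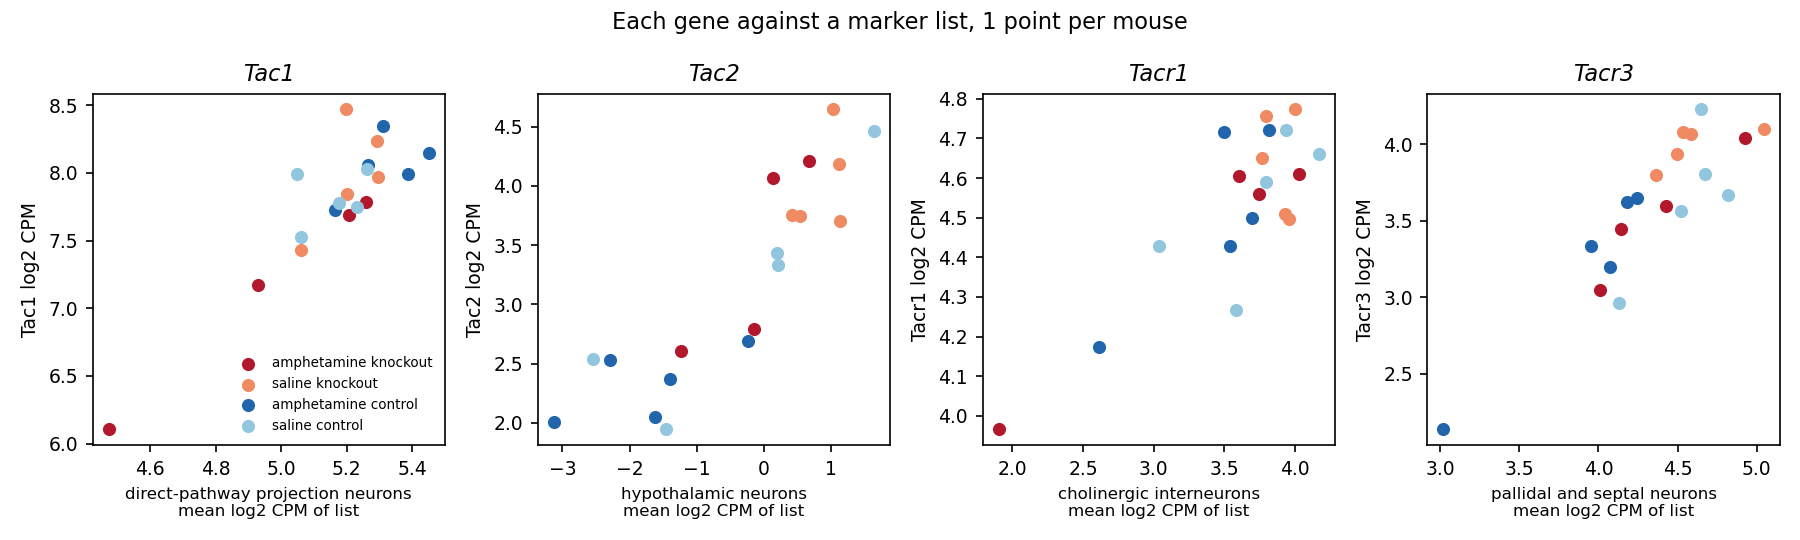
Log2 CPM of each gene against the score (mean log2 CPM) of 1 marker list, 1 point per mouse, coloured by group, with group means not subtracted. Amphetamine knockout library 3 lies alone at the low end for Tac1 and Tacr1, and amphetamine control library 3 alone at the low end for Tacr3.

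The genes whose log2 CPM was most like each member over the 19 mice were taken from 15224 genes with a mean of at least 1 CPM, as a description without a test, since libraries share depth and tissue composition. For Tac1 these were Zfp503, Syndig1, Asb11 and Klhl13 (r = 0.93 each) and Rarb (r = 0.91), the last a gene of the projection neuron list. For Tac2 they were Trh (r = 0.93), Rnd1 and Otp (r = 0.92 each) and Slc17a6 and Spindoc (r = 0.91 each), with Otp a gene of the hypothalamic list. Tacr1 was most like Qrfprl and Nfatc2 (r = 0.89 each), Six3os1 (r = 0.88), Slc5a7 (r = 0.87) and Chat (r = 0.84), the last 2 genes of the cholinergic list. Tacr3 was most like BC035947 (r = 0.98), Lhx5 (r = 0.96), Nkx2-1 (r = 0.95) and Lhx6 and Ubfd1 (r = 0.94 each), with Nkx2-1 a gene of the pallidal and septal list.

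Of the 18 genes of the pathway around the peptides and receptors, all were tested and 0 were called in any of the 7 comparisons. In the same comparisons 0% to 0.149% of all genes tested were called. Among the 4 enzymes that process peptide precursors (Pcsk1, Pcsk2, Cpe, Pam), the smallest p belonged to Pcsk2, a prohormone convertase, with a log2 fold change of 0.26 for amphetamine against saline in control mice (edgeR adjusted p = 0.358). Of the 2 peptidases Mme and Ace, Mme (neprilysin, which degrades substance P) was nearer to a call, at -0.70 for knockout against control under amphetamine (edgeR adjusted p = 0.299). Among the 9 genes of Gq signalling the smallest p was that of Prkcb, a protein kinase C, at -0.37 for knockout against control averaged over treatments (edgeR adjusted p = 0.325). Arrb2, which encodes a beta-arrestin that desensitizes receptors, had the smallest p of the 3 desensitization genes, at 0.12 for the same comparison (edgeR adjusted p = 0.424).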

How the data were processed

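The members and gene lists were chosen with earlier results of these data known. Whole-number counts per gene were deposited by the authors for each library, with HTSeq 0.6.1p2, STAR 2.6.0c, FastQC 0.11.5, Trim Galore 0.5.0, DESeq2 1.26.0s, R 3.6.1 and GRCm39 named, without order, per the submitters' processing notes. The annotation release and strand setting were not given in the sources used here. The authors also deposited 3 comparison tables with FPKM, log2 fold changes and p-values, a signal column (the mean normalised level) and a score (the Wald statistic), per the file headers. A knockout library 7 named as left out in one of them was not analysed here.

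Counts were tested with edgeR 4.0.16 in R 4.3.3 (filterByExpr, TMM, robust quasi-likelihood fit). The procedure was tested on simulated counts. Levels are TMM-scaled CPM, and log2 CPM used a prior count of 2. DESeq2 1.42.0 was an alternative, as were RLE scaling, no filter, fits of the compared groups alone, marker covariates, a replicate block and leaving out libraries. The projection neuron and cholinergic marker lists were each used without 1 gene that is not reported here. Named genes were the 4 members, the other family genes by level, the pathway gene of smallest p in each of 4 sub-lists where none was called, and the 5 genes most like each member. Correlations used 100000 permutations within groups, 2-sided, and Tac1 relative to markers was compared by exact permutation tests. No library was a copy of another (chi-square over its degrees of freedom at least 7.91 for each pair). Replicate numbers come from the titles of different mice and are not stated to pair them. Promoter sequences came from RefSeq on GRCm38.p6, and no coordinates were converted to GRCm39.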

Additional observations from a re-analysis of the deposited data

Results flagged for a closer look

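Of 16 sets of values tested (4 genes in 4 groups), 1 held a mouse far from the others. Tacr1 in amphetamine knockout library 3, at 15.6 CPM, lay below the other 3 mice of its group (23.6 to 24.4 CPM), with a gap to the nearest of 0.923 of the group's range, above Dixon's critical value of 0.829 for 4 samples. The critical value is a 95% limit, so chance alone flags about 5% of such sets. This library was also the lowest of all mice for Tac1 and for the cholinergic, direct-pathway and projection neuron scores. Its cortical score, 5.45 on the log2 scale, was the highest of all mice, and the cause was not tested.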

How the results depend on the processing

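None of the 4 genes was called under any alternative, with adjusted p from 0.0842 upward. Counts of all genes called moved more. They are given for amphetamine in control mice, amphetamine in knockout mice, genotype under saline, genotype under amphetamine, the interaction, amphetamine averaged and genotype averaged: 1, 1, 0, 0, 0, 32 and 0 by edgeR, and 192, 93, 2, 87, 13, 418 and 0 by DESeq2. Without the 4 libraries described as standing apart they were 183, 3, 0, 1, 0, 751 and 0, and without 5 (chosen after seeing the data) 39, 2, 0, 1, 0, 470 and 0. Fits of the compared groups alone gave 75, 0, 0 and 0 for the first 4, and marker covariates 0 throughout. Leaving out 1 library gave 0 to 4, 0 to 3 and, for amphetamine averaged, 3 to 269, highest without saline control library 5. The replicate block gave 1, 5, 0, 0, 0, 18 and 0 and called no member. Same-numbered mice had correlations from -0.349 to 0.154, which cannot show whether they shared a litter or a day. From library 2 on, the title numbers of the amphetamine knockout mice are also out of step with the authors' own numbers, because of the library left out.

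These log2 values changed sign, and the cause was not tested. With marker covariates Tacr1 was 0.107 and Tacr3 0.165 for amphetamine in control mice, Tacr3 -0.0522 for genotype under amphetamine, and Tacr1 0.00598 for amphetamine averaged and -0.0194 for genotype averaged. Without the 4 libraries Tacr1 was 0.0604 for genotype under amphetamine, the Tac2 interaction -0.256 and Tac1 0.0579 for amphetamine averaged, and without 5 the last 2 were -0.334 and 0.0560. The Tacr3 interaction was 0.00330 by DESeq2, 0.00389 with RLE and 0.0115 with the replicate block. Leaving out 1 library gave ranges of -0.0882 to 0.0486 for Tacr1 with amphetamine in control mice, -0.136 to 0.0704 for Tacr1 by genotype under amphetamine, -0.0219 to 0.0848 for Tacr1 by genotype averaged and -0.198 to 0.141 for the Tacr3 interaction. Tac1 relative to Drd1 was -0.230 for amphetamine in control mice and 0.0536 for genotype under amphetamine, relative to all projection neuron markers -0.233 for amphetamine in control mice, and relative to the direct-pathway list -0.00174 to 0.224 for genotype under saline when 1 library was left out.

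Among pairs of members, 1 relation passed, 2 with group means not subtracted and 0 without the 2 farthest mice, where r of Tac1 and Tacr3 was -0.124. Of the 14 relations with marker lists, 2 passed without the 2 farthest mice.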
